A study of Homo sapiens with 6 samples.

Results

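The interleukin-1 (IL-1) family and its receptors were described in MDA-MB-231 cells, a triple-negative breast adenocarcinoma cell line, with and without guadecitabine (SGI-110), an inhibitor of DNA methyltransferases. The set held the ligands IL1A, IL1B, IL1RN, IL18 and IL33, the receptors IL1R1, IL1R2, IL1RAP and IL1RL1, and the receptor-associated kinase IRAK2. These 10 genes were chosen by their place in the IL-1 system with the change between the treatments already known, so that their differences, and the number of them past a threshold of the fit over all genes, are a description and no test of these genes. Rows were matched by gene symbol, and 9 of the 10 were found among the 17100 transcripts of the table, each as 1 transcript. The expression of IL33 was not analysed here, and only its promoter windows were examined. The filter on low counts kept 8 of the 9 among 13322 genes tested, and the gene that it removed was IL1RL1.

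RNA sequencing counts were given for 3 vehicle libraries and for 3 libraries from cells that received 1 µM guadecitabine during 96 h followed by 24 h without the drug. The libraries of each group came from independent experiments, all groups used the same cell line in the same serum-containing medium, and the composition of the vehicle was not given in the sources used here. The treatment text of the labels was the same for all 6 samples, and the groups were taken from the sample titles. Totals ran from 17602570 to 22277442 counts in the vehicle libraries and from 8792127 to 21410849 in the guadecitabine libraries, with guadecitabine replicate 2 the shallowest.

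Vehicle replicate 3 stood apart from the other libraries. It had 20 transcripts at 0 counts, against 1593 to 2517 in each of the others. For 2781 genes whose counts in both other vehicle libraries were 0 or 1, it held a median of 19 counts, or 7.78 counts per kb of exon, and the median of every other library was 0. For some genes with a large share of their vehicle counts in this library, values without it are also given.

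IL-1α and IL-1β, the products of IL1A and IL1B, are inflammatory cytokines that bind the same receptor, IL1R1. Bound IL1R1 recruits the accessory protein IL1RAP, and the pair passes the signal through the adaptor MYD88 and the kinases of the IRAK family to NF-kB and AP-1. The system has natural brakes, among them the receptor antagonist made by IL1RN, which occupies IL1R1 without signalling, and the decoy receptor IL1R2, which binds IL-1 and does not signal. IL-1β and IL-18 are made as precursors that are cut by caspase-1 in the inflammasome, and RNA levels do not show how much active cytokine is released. In bulk RNA, fewer cells of a type and less RNA per cell cannot be told apart.

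IL1B and IL1A, the agonists, had the largest differences of the set, and both were at very low levels in vehicle-treated cells and among the abundant transcripts after guadecitabine. IL1B had 26, 21 and 58 counts in the vehicle libraries and 11892, 3615 and 8579 in the guadecitabine libraries. Scaled to a common library size, these were 24.8, 22.2 and 44.8 normalized counts against 9628, 7357 and 8661. The groups were far apart, and the lowest guadecitabine library was the shallowest in raw counts but close to the others after scaling. The means were 30.6 ± 12.4 and 8549 ± 1140 normalized counts (SD, n = 3), and the fitted log2 fold change was 8.08 (SE 0.252), a 271-fold difference.

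IL1A had 10, 15 and 22 counts in vehicle and 5509, 1787 and 3465 in guadecitabine. The normalized counts were 9.52, 15.8 and 17.0 against 4460, 3637 and 3498, again with no overlap. The means were 14.1 ± 4.02 and 3865 ± 520 normalized counts (SD, n = 3), and the log2 fold change was 8.07 (SE 0.211), a 269-fold difference. Of the 22 counts in vehicle replicate 3, the background of that library alone would give 22.8 over an exon length of 2928 bp. IL1B stood above this background there, with 58 counts where 11.7 would come from it. Without vehicle replicate 3 the log2 fold changes were 8.25 for IL1A and 8.50 for IL1B, and over all libraries left out in turn they ran from 7.87 to 8.25 and from 7.92 to 8.50. Over the other alternative fits, among them one with this background subtracted, they ran from 8.06 to 8.92 for IL1A and from 8.08 to 8.21 for IL1B.

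**Figure D1:**
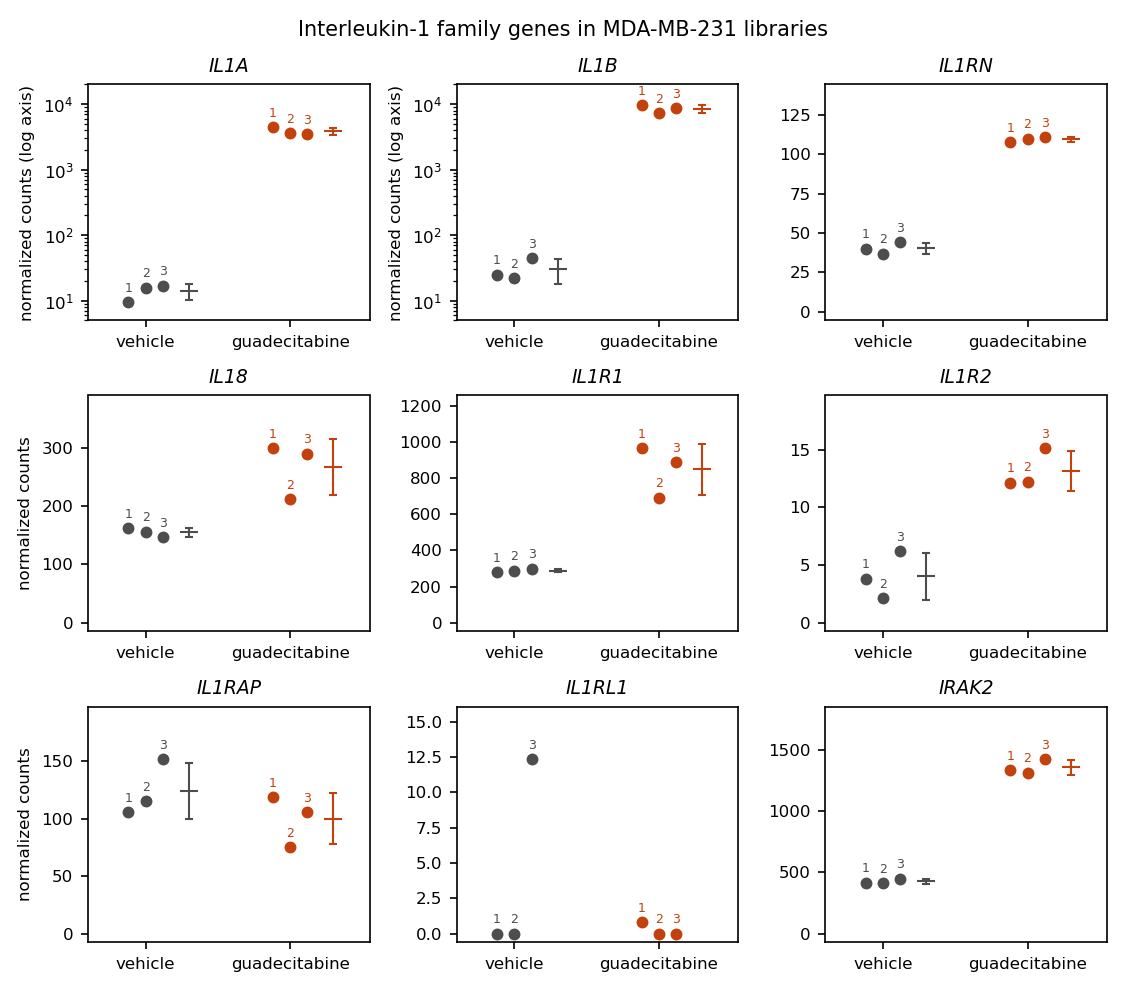
Normalized counts of the 9 genes in each library, vehicle in grey and guadecitabine in orange, with the replicate number above each point and the mean ± SD (n = 3) beside the points for the 8 tested genes. IL1A and IL1B are on log axes and the others on linear axes. IL1A lies between 9.52 and 17.0 in vehicle and between 3498 and 4460 in guadecitabine, IL1RAP overlaps between the groups, and IL1RL1 has counts above 1 in vehicle replicate 3 alone.

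Among the 13322 genes tested, ranked by log2 fold change, IL1B was at position 20 and IL1A at position 21. Per kb of exon, IL1B moved from the 17.3 percentile of levels in vehicle to the 98.1 percentile in guadecitabine, and IL1A from 5.35 to 89.7. IL1B was the more abundant agonist in every library. The ratio of IL1B to IL1A per kb was 5.08, 2.74 and 5.15 in the vehicle libraries and 4.22, 3.95 and 4.84 in the guadecitabine libraries, and these ranges overlapped. The gene whose profile was nearest to IL1B, by the Euclidean distance of centred log2 CPM over the 6 libraries, was MAGEA4, at 0.686. IL1A came next at 0.731, at position 2 of 13321 genes, followed by MAGEB2 at 0.879. MAGEA4 and MAGEB2 are cancer/testis antigen genes, and with 3 libraries in each of 2 groups this measure mostly orders genes by the size of the difference between the groups.

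IL1A lies at chr2:113531492-113542971 and IL1B at chr2:113587337-113594356, both on the minus strand of hg19, with 44.4 kb between them. Because guadecitabine acts on the methylation of CpG sites and these genes moved together, the 250 bases before the RefSeq start of each are shown, with the IRAK2 promoter as a CpG-rich contrast within the set. The sequences are from GRCh38.p14 and are written 5′ to 3′ on the strand of the gene. CpG sites are in capitals. The stretch for IL1A is chr2:112784494-112784743 on the minus strand, that for IL1B is chr2:112836780-112837029 on the minus strand, and that for IRAK2 is chr3:10164669-10164918 on the plus strand.
IL1A: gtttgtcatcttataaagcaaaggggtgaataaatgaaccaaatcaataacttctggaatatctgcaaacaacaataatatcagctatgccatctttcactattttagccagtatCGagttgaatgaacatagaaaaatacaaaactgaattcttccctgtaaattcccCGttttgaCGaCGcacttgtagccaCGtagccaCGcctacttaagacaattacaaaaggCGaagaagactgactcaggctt
IL1B: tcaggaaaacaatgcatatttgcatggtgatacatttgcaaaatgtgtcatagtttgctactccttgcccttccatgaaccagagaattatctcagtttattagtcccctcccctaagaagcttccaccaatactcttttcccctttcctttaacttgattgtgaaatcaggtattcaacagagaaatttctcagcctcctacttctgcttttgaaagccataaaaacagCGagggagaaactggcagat
IRAK2: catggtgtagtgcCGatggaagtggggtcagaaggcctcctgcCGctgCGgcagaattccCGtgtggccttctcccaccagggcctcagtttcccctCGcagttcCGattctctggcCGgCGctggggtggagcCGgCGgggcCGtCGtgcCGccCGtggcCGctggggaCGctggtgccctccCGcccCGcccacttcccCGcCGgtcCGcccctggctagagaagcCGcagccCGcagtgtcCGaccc
These stretches hold 7 CpG sites for IL1A, 1 for IL1B and 24 for IRAK2. Most of the CpG sites of IL1A lie in the 100 bases next to the start, which hold 6 of the 7.

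The promoter windows of the whole table, from 250 bases before to 50 after each of 35116 RefSeq starts, held a median of 14 CpG sites, with quartiles at 4 and 28. Within the same 300 bases IL1B had 2 CpG sites, and 18.2% of all promoters had at most that many. Both starts listed for IL1A had 8, with 41.6% of promoters at or below. The 3 starts of IL1RN had 2, 5 and 7, and those of IL1RL1 had 1 each. IRAK2 with 31 and IL1RAP with 36 were CpG-rich, as was the last of the 4 listed starts of IL1R1 with 40, while its other starts had 7, 4 and 8. The starts of IL1R2 had 1 and 9 and those of IL33 had 1 and 3. IL18 had no promoter entry. The set therefore held CpG-poor and CpG-rich promoters, and both kinds occurred among genes with higher counts after guadecitabine. Of the CpG-rich genes, IRAK2 was higher and IL1RAP was not called (log2 fold change of -0.29). IL1R1 had starts of both kinds, and the start in use was not determined. Methylation was not measured in these libraries.

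**Figure D2:**
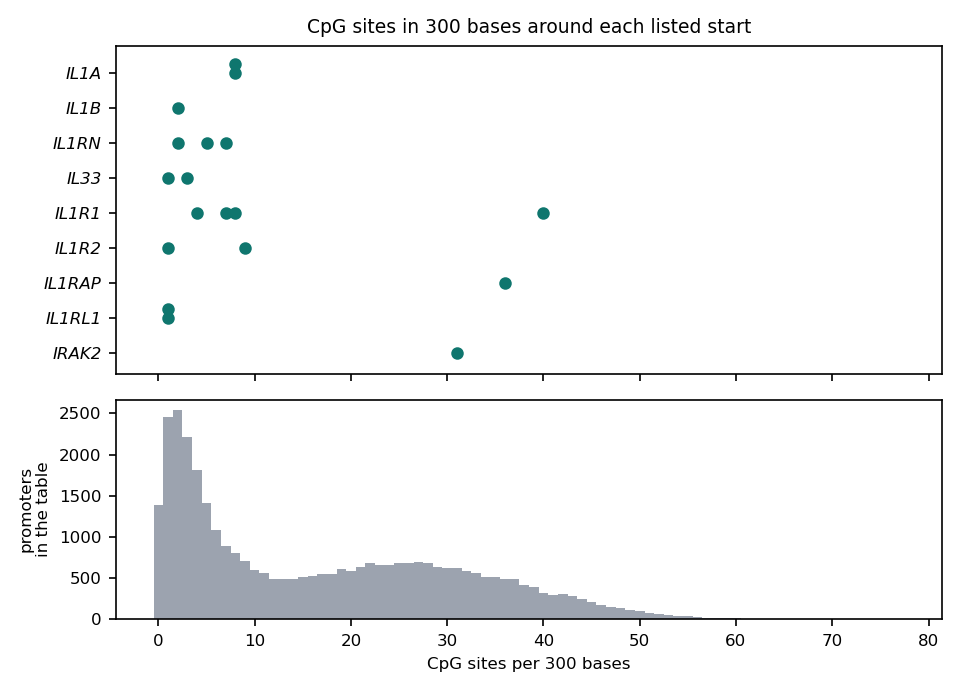
CpG sites in 300 bases around each listed RefSeq start of the family genes (upper panel, 1 point per start) and in all 35116 promoters of the table (lower panel, number of promoters at each count of CpG sites). IL1A and IL1B have 8 and 2 sites, and IRAK2, IL1RAP and the last start of IL1R1 lie between 31 and 40. IL18 had no promoter entry and is not drawn.

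Motifs were searched by their letters on both strands of the same windows. The AP-1 motif TGANTCA was in 7.71% of all promoters, and 0.515% held at least 2 copies. The window of the first IL1A start held 2 copies, beginning at -12 and 38 bases from the start, counted with the start itself as 0, and the overlapping window of the second start held the same copies. IL1RN had 1 copy at -223 from its first start and IL1RL1 had 1 at -191. The κB consensus GGGRNNYYCC (R for A or G, Y for C or T, N for any base) was in 11.3% of all promoters. Among the windows of the family it was only in that of the second IL1R2 start, at -125. IL18, without a promoter entry, was not searched. Bases outside the windows were not searched, so the lack of a match does not show that a gene has no κB site. The AP-1 letters were searched after the sequences had been seen, and a match describes the letters of the window and no more.

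The inhibitory ligand IL1RN moved in the same direction as the agonists by a far smaller amount. IL1RN had 40.0, 37.0 and 44.0 normalized counts in vehicle and 107.7, 109.9 and 111 in guadecitabine. The groups did not overlap, and the guadecitabine libraries lay within a few counts of each other. The means were 40.3 ± 3.54 and 109.5 ± 1.71 (SD, n = 3), with a log2 fold change of 1.44 (SE 0.233). The balance of agonist to antagonist RNA, given as IL1A plus IL1B over IL1RN per kb of exon, was 0.951, 1.05 and 1.56 in the vehicle libraries. It was 142, 108 and 121 in the guadecitabine libraries. Agonist and antagonist transcripts were thus at about equal levels in vehicle (1.19 ± 0.326, SD, n = 3) and far apart in guadecitabine (123 ± 17.3). Because the ratio is taken within a library, it does not depend on depth or scaling.

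IL18, a relative of IL-1β that promotes interferon-γ production in lymphocytes, had a small difference. The normalized counts were 161.9, 156 and 147 in vehicle and 299.6, 212 and 289.7 in guadecitabine. All guadecitabine libraries lay above vehicle, with replicate 2 the lowest. The means were 155 ± 7.67 and 267 ± 48.2 (SD, n = 3), with a log2 fold change of 0.80 (SE 0.163). In vehicle IL18 was the most abundant ligand of the set per kb, and IL1B reached 0.116, 0.108 and 0.231 of its level. In guadecitabine IL1B was 24.4, 26.3 and 22.6 times IL18.

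The remaining ligands of the family in the table, IL36G, IL36RN and IL37, were not tested because of low counts. IL36G, an epithelial agonist, had 0, 0 and 1 counts in vehicle and 4, 2 and 7 in guadecitabine. IL36RN, the antagonist of the IL-36 receptor, had 0, 0 and 10 against 1, 3 and 1, and IL37, an inhibitory ligand, had 1, 0 and 5 against 2, 0 and 5. These 3 genes lie on chromosome 2 between IL1B and IL1RN, in a cluster that spans 360.1 kb from IL1A to IL1RN. At most 10 counts of any of them were seen in a library, while IL1A and IL1B had at least 1787 counts in each guadecitabine library. The neighbours outside the cluster had higher counts with small differences, with a log2 fold change of 0.69 for CKAP2L before IL1A and 0.55 for PSD4 after IL1RN (edgeR, adjusted p of 0.0298 and 0.0231).

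IL1R1, the signalling receptor, was higher after guadecitabine in every library. It had 280, 287 and 299.7 normalized counts in vehicle and 968, 692 and 888 in guadecitabine. The vehicle libraries lay close together and the groups did not overlap. The means were 289 ± 9.94 and 849.6 ± 142 (SD, n = 3), with a log2 fold change of 1.56 (SE 0.138), a 2.95-fold difference. Of the annotated exon bases of IL1R1, 11 were shared with IL1R1-AS1 on the opposite strand, which is 0.161% of them.

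IL1RAP, the accessory chain that IL1R1 needs for signalling, did not follow its partner. It had 105.7, 115 and 152 normalized counts in vehicle and 119, 75.3 and 106 in guadecitabine. The groups overlapped, and the highest vehicle library was replicate 3. The means were 124 ± 24.6 and 100.1 ± 22.4 (SD, n = 3), and the log2 fold change was -0.29 (SE 0.232). Without vehicle replicate 3 it was -0.10. The ratio of IL1RAP to IL1R1 per kb was 0.645, 0.685 and 0.867 in vehicle and 0.210, 0.186 and 0.204 in guadecitabine. By the 1 transcript counted for each gene, the accessory chain was the scarcer of the pair in every library, and by a wider margin in guadecitabine. The counted length was 2911 bp for IL1RAP and 4973 bp for IL1R1, against 11210 and 6838 annotated exon bases. Whether reads on uncounted exons would alter these levels was not tested.

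IL1R2, the decoy receptor, was near the detection limit. It had 4, 2 and 8 counts in vehicle and 15, 6 and 15 in guadecitabine, or 3.81, 2.11 and 6.18 against 12.1, 12.2 and 15.1 normalized counts. The groups did not overlap, but the gene, like IL1A, passed the filter only through the guadecitabine libraries, and its 8 counts in vehicle replicate 3 compare with 11.3 from the background of that library. The log2 fold change was 1.65 (SE 0.685), and without vehicle replicate 3 it was 2.09. Per kb the decoy stood at 0.0465, 0.0251 and 0.0704 of IL1R1 in vehicle and 0.0428, 0.0603 and 0.0582 in guadecitabine. These ranges overlapped.

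IL1RL1, the receptor for IL-33, had 0, 0 and 16 counts in vehicle and 1, 0 and 0 in guadecitabine. The 16 counts of vehicle replicate 3 compare with 16.0 from the background of that library, and the other 5 libraries were at 0 or 1. Its annotated exons share 1.65% of their bases with IL18R1 on the same strand. No fold change is given, since the counts outside vehicle replicate 3 were under the floor of 3.

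IRAK2, a kinase of the receptor complex that sustains NF-kB activation, had the smallest standard error of the set. It had 416, 413 and 450.3 normalized counts in vehicle and 1334, 1313 and 1427 in guadecitabine. The groups were well separated and each was tight. The means were 426 ± 20.7 and 1358 ± 60.4 (SD, n = 3), with a log2 fold change of 1.67 (SE 0.102), a 3.18-fold difference.

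**Figure D3:**
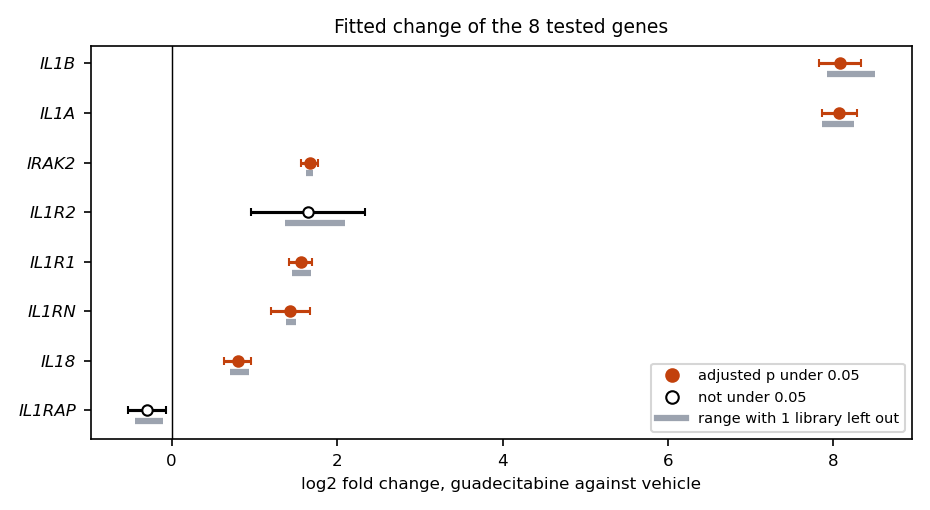
Fitted log2 fold change of the 8 tested genes, guadecitabine against vehicle, with the standard error as whiskers and, as grey bars, the range when each of the 6 libraries was left out in turn. Filled points had an adjusted p under 0.05 in the edgeR fit over all genes, shown as a description because the genes were chosen with this contrast known. IL1B and IL1A lie near 8.08 and 8.07, the other filled points lie between 0.80 and 1.67, and IL1RAP has the only negative value.

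In the edgeR fit over all genes, 6 of the 8 had an adjusted p under 0.05 with a higher level in guadecitabine and 0 with a lower level. Over all 13322 genes, 19.3% passed as higher and 18.4% as lower. The normalized counts of 7 genes did not overlap between the groups and were higher in guadecitabine, which was the case for 26.6% of all genes, and 0 were lower without overlap, against 25.0% of all genes. The median log2 fold change was 1.61 for the 8 genes and 0.02 for all genes. Since the genes were picked with this contrast known, nothing is read from these counts.

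Ordered by level per kb of exon in vehicle, IL18 (136.5 ± 6.75 normalized counts per kb, SD, n = 3) and IRAK2 (123 ± 5.96) stood at the top with overlapping ranges. IL1R1 followed with 58.1 ± 2.00 and IL1RAP with 42.7 ± 8.43. IL1RN (21.0 ± 1.84) and IL1B (20.4 ± 8.26) overlapped each other. IL1A (4.82 ± 1.37), IL1R2 (2.77 ± 1.40) and IL1RL1 (2.00 ± 3.47) came last, each overlapping the next. In guadecitabine the order was headed by IL1B (5707 ± 761) and IL1A (1320 ± 178). IRAK2 (391 ± 17.4) came next, and IL18 (235 ± 42.4) and IL1R1 (171 ± 28.6) followed with overlapping ranges. IL1RN (57.0 ± 0.891), IL1RAP (34.4 ± 7.71), IL1R2 (9.04 ± 1.18) and IL1RL1 (0.131) closed the order, each above the next. The agonists thus went from the lower part of the order to its top, while IL1R1, IL1RAP and IL1RN kept intermediate places.

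**Figure D4:**
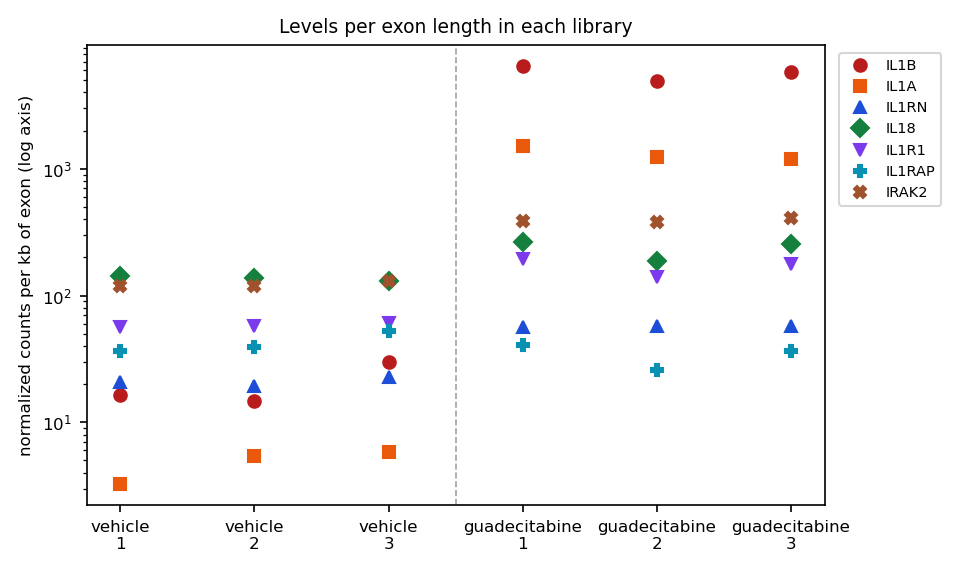
Normalized counts per kb of exon (log axis) of 7 family genes in each of the 6 libraries. IL1R2 and IL1RL1, near the detection limit, are not drawn. IL1B and IL1A are below IL1R1 in every vehicle library and above all other genes in every guadecitabine library, while IL1RAP lies between 25.9 and 52.3 throughout.

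The receptors IL1R2, IL1R1, IL1RL2, IL1RL1, IL18R1 and IL18RAP form a second cluster on chromosome 2 that spans 460.7 kb of hg19. IL1R1, at chr2:102686836-102796334, was the only one of them with more than 41 counts in any library. IL1RL2, the receptor for IL-36, had 11, 9 and 23 counts in vehicle and 41, 13 and 25 in guadecitabine, with a log2 fold change of 1.16 (SE 0.509) and an adjusted p of 0.104 in edgeR's test. Without vehicle replicate 3 the value was 1.51, with an adjusted p of 0.00684. The chains of the IL-18 receptor were at or near 0, with 3, 0 and 18 against 7, 0 and 8 counts for IL18R1 and 0, 0 and 16 against 0, 0 and 0 for IL18RAP. The IL18 ligand was thus measured in cells in which the transcripts of its receptor were scarce.

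Of the other receptors of the family, 4 of the 7 listed were tested, with 0 higher and 1 lower, against 19.3% of all genes higher and 18.4% lower. SIGIRR, an inhibitory receptor that dampens IL-1 signalling, had 638, 604 and 659 counts in vehicle and 271, 170 and 275 in guadecitabine. It fell by 1.08 on the log2 scale (SE 0.171, edgeR, adjusted p of 0.00123). IL1RAPL1, a synaptic relative of IL1RAP, had a log2 fold change of 0.67 (SE 0.271, adjusted p of 0.0827). IL18BP, which neutralizes IL-18, had 0.44 (adjusted p of 0.415), and without vehicle replicate 3 it was 0.81 with an adjusted p of 0.033.

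The proximal signalling list held 18 genes, all tested, of which 5 were higher, 2 were lower and 11 did not pass, with a median log2 fold change of 0.07. Over all genes 19.3% were higher and 18.4% lower. MYD88, the adaptor of the receptor, had 1609, 1487 and 2143 counts in vehicle and 2763, 1118 and 2367 in guadecitabine, and rose by 0.54 (SE 0.096, adjusted p of 0.00233). PELI1, a ubiquitin ligase acting on IRAK proteins, rose by 1.23 (adjusted p of 0.00313). MAP3K8, a kinase upstream of ERK, rose by 0.86 (adjusted p of 0.0157) and lost the call without guadecitabine replicate 1, vehicle replicate 1 or vehicle replicate 2 (0.72 to 0.84). IRAK3, which restrains signalling, rose by 0.94 (adjusted p of 0.0242) and lost the call when any of the guadecitabine libraries or vehicle replicate 1 was left out (0.80 to 0.98). TAB2, an adaptor of the kinase TAK1, completed the genes that rose.

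The core kinases IRAK1 and IRAK4 and the ubiquitin ligase TRAF6 did not pass the test. Their log2 fold changes were -0.13 (SE 0.187), 0.10 (SE 0.217) and -0.06 (SE 0.142), with adjusted p of 0.632, 0.753 and 0.772 in edgeR's test. TAB1, another TAK1 partner, fell by 1.04 (adjusted p of 0.000306). PELI2, a relative of PELI1, fell by 1.79 (adjusted p of 0.0234) from at most 61 counts, and lost the call without any of the guadecitabine libraries or without vehicle replicate 2 (-1.66 to -1.86). The fitted value of IRAK2, 1.67, was larger than those of IRAK1, IRAK3 and IRAK4, and the differences between these genes were not tested.

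The NF-kB and AP-1 list held 20 genes, of which 12 were higher, 2 were lower and 6 did not pass, with a median of 0.62. The shares over all genes were 19.3% higher and 18.4% lower. TNFAIP3, a feedback inhibitor of NF-kB, had 135, 134 and 273 counts in vehicle and 1427, 617 and 1112 in guadecitabine, and rose by 2.87 (SE 0.181, adjusted p of 5.73e-06). Without vehicle replicate 3 its rise was 3.12. NFKBIZ, a nuclear cofactor of NF-kB, rose by 1.86 and NFKBIB, an inhibitor that holds NF-kB in the cytoplasm, by 1.72 (adjusted p of 3.09e-06 and 2.28e-05). The subunits NFKB1, NFKB2, RELA and RELB were also among the genes that rose. Of the AP-1 subunits in the list, JUNB alone was higher, by 1.26 (edgeR, adjusted p of 0.00103). JUN, FOS and FOSL1 did not pass, with -0.28, -0.29 and -0.12 (edgeR, adjusted p of 0.170, 0.343 and 0.317). MAPK14, the p38α kinase, fell by 0.38 (adjusted p of 0.0212) and lost the call without guadecitabine replicate 3, vehicle replicate 1 or vehicle replicate 2 (-0.33 to -0.38). IKBKB, a kinase of the IKK complex, fell by 0.31 (adjusted p of 0.045) and lost the call whichever library was left out (-0.26 to -0.38).

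The processing and release list held 13 tested genes, with 4 higher, 6 lower and 3 not passing, and a median of -0.30, where 19.3% of all genes were higher and 18.4% lower. CASP4, an inflammatory caspase that senses lipopolysaccharide, had 242, 234 and 349 counts in vehicle and 1364, 471 and 854 in guadecitabine, and rose by 1.97 (SE 0.129, adjusted p of 7.25e-06). The inflammasome sensors NLRP3 and AIM2 rose by 1.41 and 0.65 (adjusted p of 0.000709 and 0.00722). NLRP1, another sensor, fell by 0.37 (edgeR, adjusted p of 0.0401) and lost the call without vehicle replicate 3 (-0.30, adjusted p of 0.123). Calpain genes, whose products cut the IL-1α precursor, fell, CAPN2 by 0.61 and the small subunit CAPNS1 by 0.59 (adjusted p of 0.00414 and 0.00149). PYCARD, the inflammasome adaptor, fell by 0.57 (adjusted p of 0.0296) and lost the call without guadecitabine replicate 3, vehicle replicate 1 or vehicle replicate 2 (-0.51 to -0.60). CASP1, the protease that matures IL-1β and IL-18, was not tested and had 4, 2 and 27 counts in vehicle and 7, 5 and 3 in guadecitabine.

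The list of genes known to be induced by IL-1 had 28 tested members, of which 25 were higher, 0 were lower and 3 did not pass, beside 19.3% higher and 18.4% lower among all genes. All 28 had a positive log2 fold change, from 0.43 to 9.72, with a median of 3.71. CSF3, the granulocyte growth factor, had 22, 15 and 38 counts in vehicle and 14890, 6761 and 12449 in guadecitabine, and rose by 9.14 (SE 0.199, adjusted p of 2.17e-08). Without vehicle replicate 3 its rise was 9.42. CXCL5, a chemokine for neutrophils, had 3, 0 and 20 counts against 3862, 1850 and 2728. Its fitted value of 8.84 (edgeR, adjusted p of 1.73e-06) depends mostly on the 20 counts of vehicle replicate 3. Vehicle replicates 1 and 2 were at or under the floor, and the value was 10.94 without vehicle replicate 3. CCL20, a chemokine for immature dendritic cells, had 3, 1 and 3 counts against 2071, 1132 and 1698. All its vehicle libraries were at or under the floor, so the size of its fitted value, 9.72, is uncertain. CCL2, MMP3 and BCL2A1 were the genes that did not pass, with 0.43, 1.50 and 1.59 (adjusted p of 0.118, 0.166 and 0.105). MMP3, a matrix protease, had 2, 2 and 14 counts in vehicle and 18, 9 and 12 in guadecitabine, and BCL2A1, an inhibitor of apoptosis, had 3, 5 and 24 against 34, 11 and 32. Without vehicle replicate 3 both passed, with 2.78 and 2.76 (edgeR, adjusted p of 0.00318 and 0.000812), and 27 of the 28 genes were higher. Other inflammatory signals also induce genes of this list, which was drawn up with results of these libraries known, and whether IL-1 itself acted on them was not tested.

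**Figure D5:**
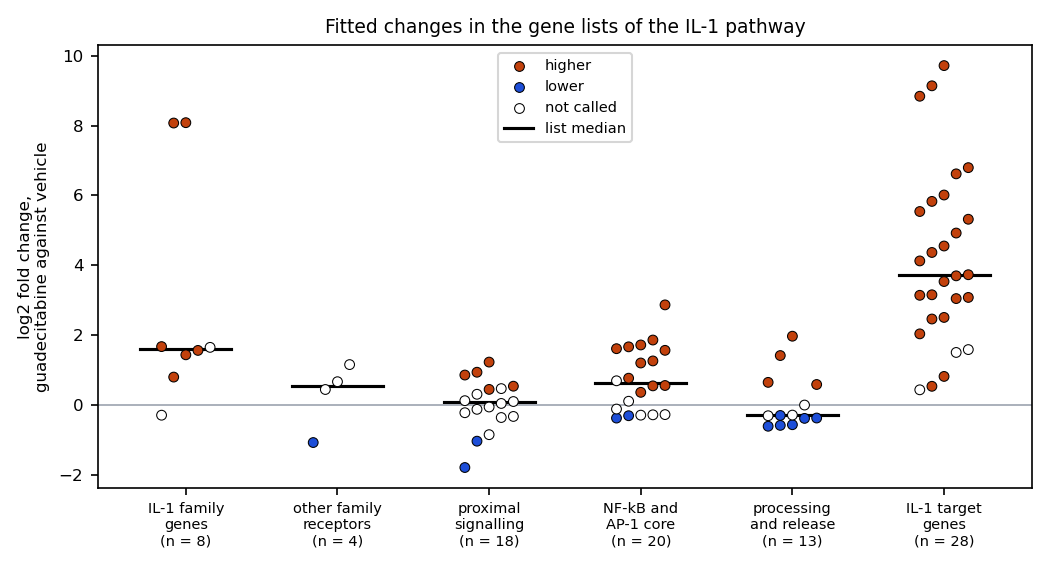
Log2 fold change of each tested gene, guadecitabine against vehicle, in the family set and 5 lists of the IL-1 pathway. Points are genes, filled where the adjusted p was under 0.05 (orange higher, blue lower), and black lines are list medians. The medians are 1.61 for the family genes, 0.07 for proximal signalling, 0.62 for the NF-kB and AP-1 core and 3.71 for IL-1 target genes.

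Leukocytes express IL1A, IL1B and IL18 strongly, and their markers were examined beside these genes. Of 20 leukocyte markers, 16 were in the table and 5 were tested. The pan-leukocyte gene PTPRC had 0, 2 and 36 counts in vehicle and 3, 0 and 2 in guadecitabine, and CD163, ITGAX, FCGR3A, AIF1, SPI1, CD2 and MS4A1 also had at most 3 counts in each library other than vehicle replicate 3. The summed level of the list was 3365 to 3994 normalized counts in vehicle and 7747 to 8043 in guadecitabine, most of it from CD68, a lysosomal gene that many cell types express, with 3071, 2905 and 4275 counts in vehicle and 9024, 3744 and 7481 in guadecitabine. FCER1G, an adaptor of Fc receptors, rose from 1, 0 and 6 counts in vehicle to 165, 41 and 101 in guadecitabine. Its fitted log2 fold change was 5.61 (edgeR, adjusted p of 0.000222), and 7.42 without vehicle replicate 3. The size of this value is uncertain, since the vehicle counts were few and mostly from vehicle replicate 3. CSF1R, the receptor of a macrophage growth factor, fell by 1.32 (adjusted p of 0.000115). The part of these cells in the levels of the IL-1 genes was not tested. Of 10 genes known to be high in MDA-MB-231, all were tested, and their sum was 156490 to 165417 normalized counts in vehicle and 210256 to 227415 in guadecitabine. SPARC, a matrix protein gene of that list, had only 18, 24 and 74 counts in vehicle and 3759, 1665 and 2994 in guadecitabine, a log2 fold change of 6.51 (SE 0.322, adjusted p of 1.41e-06) and of 7.21 without vehicle replicate 3. The luminal markers ESR1 and PGR had at most 3 counts outside vehicle replicate 3, and the luminal sum was 51284 to 57939 in vehicle and 32709 to 43234 in guadecitabine. Other luminal markers were clearly present, and KRT8 alone had 22864, 22186 and 26328 counts in vehicle. Of the 12 luminal markers, 9 were tested, with 1 higher, GATA3, and 5 lower, ERBB2, CDH1, EPCAM, KRT19 and KRT8. Over all genes, 19.3% were higher and 18.4% lower.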

How the data were processed

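The authors aligned reads to hg19 with STAR, for which the submitters' processing notes give version 2.3.1z, and deposited raw counts of exon reads per RefSeq transcript, made with iRNA-seq. The authors also deposited log2 values from the regularized log transformation of DESeq2, used here only as an alternative, and the counted exon length of each transcript, another value of the same table. The fold changes, test statistics and p-values of the authors' own comparison were not used. Treatment of multi-mapping reads, strand and read length were not given in the sources used here, and the library kit is not described as stranded.

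The test of each gene was the quasi-likelihood F test of edgeR 4.0.16 (R 4.3.3) on TMM-normalized counts. Low genes were removed by filterByExpr at a minimum count of 10, and p-values of the 13322 genes left were adjusted by the method of Benjamini and Hochberg, with a threshold of 0.05. Standard errors came from the F statistic. Normalized counts refer to a library of 17911210 counts, the mean of the 6 totals, and were divided by exon length for levels per kb. The fit was tested on simulated counts. A floor of 3 counts per library was used, and counts carry counting error in addition to the replicate spread. Reads are not independent molecules. No 2 libraries held the same counts.

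The family genes and the lists were chosen with earlier results of these data known. The text names all family genes, the 3 largest rises and falls of each list among genes that passed, and MYD88, IRAK1, IRAK3, IRAK4, TRAF6, CASP1, the other family ligands and receptors, and the 3 genes nearest to IL1B. Neighbours of the clusters, TAB2, the NF-kB and AP-1 subunits, NLRP1, the 3 target genes that did not pass and single markers were named after their values were seen. Alternatives were a replicate block, DESeq2 1.42.0, its size factors, library totals, other filters, an adjusted p of 0.01 and each library left out. Subtraction of the background of vehicle replicate 3 and the deposited log2 values were added after seeing the data. Promoter sequences were RefSeq entries on GRCh38.p14, matched by symbol for 9 of the 10 genes, all but IL18. No coordinates were converted between builds. Exon overlaps came from GENCODE release 44 on GRCh37.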

Additional observations from a re-analysis of the deposited data

How the results depend on the processing

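As a description of genes chosen with the contrast known, 6 family genes were past the threshold as higher and 0 as lower. Leaving out libraries gave 6 to 7 higher, with IL1R2 the gene added without vehicle replicate 3 (2.09) and after background subtraction (2.72), and the other alternatives gave 6. The deposited log2 values, compressed at low counts, gave smaller differences with no test, at 5.07 for IL1A, 5.86 for IL1B, 1.15 for IRAK2, 0.95 for IL1R1, 0.32 for IL18, 0.30 for IL1RN and 0.05 for IL1R2. The agonist to antagonist ratio ranged from 1.00 to 1.31 in vehicle and 114 to 131 in guadecitabine with libraries left out, and the ratio of IL1R2 to IL1R1 from 0.0358 to 0.0584 and 0.0505 to 0.0592.

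Over all genes, an adjusted p of 0.01 gave 1496 higher and 1433 lower in place of 2576 and 2446, and leaving out libraries gave 1706 to 3002 and 1629 to 2575. In the lists an adjusted p of 0.01 gave 2 higher and 1 lower in proximal signalling, 2 lower in processing and release and 0 lower in the NF-kB and AP-1 core. Without a filter, 1 proximal gene, 3 processing genes and 0 NF-kB and AP-1 genes were lower. At least 10 counts in every library, and background subtraction, each left 1 lower proximal gene. Background subtraction called 1 other receptor higher, IL1RL2, and library totals left 1 lower NF-kB and AP-1 gene. With libraries left out, other receptors higher ranged from 0 to 2, proximal genes from 2 to 5 higher and 1 to 3 lower, processing genes lower from 2 to 5, NF-kB and AP-1 genes lower from 0 to 2, and target genes higher from 24 to 27. With libraries left out, the log2 fold change ranged from -0.30 to 0.0043 for IRAK1, from -0.24 to 0.24 for IRAK4 and from -0.13 to 0.052 for TRAF6. These genes changed sign without guadecitabine replicate 1 (IRAK1, IRAK4), guadecitabine replicate 2 (TRAF6) or vehicle replicate 3 (TRAF6) and were not called in any of these fits. The cause of these changes was not tested.

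Libraries with the same replicate number did not deviate together (correlations of -0.050, 0.049 and -0.037). Those with different numbers ranged from -0.061 to 0.063. With so few libraries per group, these values cannot decide whether the numbers pair the samples. With the replicate block, 2424 genes were higher and 2230 lower, with 6 family genes higher, 0 lower, 3 processing genes lower and 1 NF-kB and AP-1 gene lower. Genes at or under the floor of 3 counts in both groups cannot be given a fold change at this depth. For genes at or under it in vehicle alone, such as CCL20, the size of the fold change is uncertain. Counts of vehicle replicate 3 near its background carry little about the gene itself.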
